A study of Saccharomyces cerevisiae with 6 samples.

Results

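The eos1 deletion strain of budding yeast was compared with its wild-type parent on 4 of the 6 arrays of the series. The members are the 2 arrays titled as the eos1 deletion and the 2 titled as the parent, and all were taken by their labels. The eos1 deletion group is BY4741 without EOS1, and the wild-type group is BY4741 itself. The other 2 arrays hold BY4741 without IZH2; they entered the estimate of the spread and are given beside some values. BY4741 is a haploid laboratory strain of mating type a with mutated HIS3, LEU2, MET17 and URA3, a background shared by all 3 strains. Cells grew in rich YPD medium at 30 degrees, shaken at 150 rpm, until log phase (optical density 1). Total RNA was hybridised to Affymetrix Yeast Genome 2.0 arrays, with 2 independent experiments per strain. The labels do not give the number of isolates of the deletion strain, so that an effect of the deletion and a property of the isolate cannot be told apart.

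Eos1 is a membrane protein of the endoplasmic reticulum. Its loss is known to make yeast sensitive to oxidants, and it has been tied to the attachment of N-linked glycans, the sugar trees built on a lipid and moved onto proteins in that compartment. The title of the series asks about its part in zinc homeostasis, which in yeast rests on the transcription factor Zap1 and on zinc transporters such as Zrt1.

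Values are scaled signals: each deposited probe set signal was multiplied by 1 factor per array so that the median gene had a signal of 541.3 on every array. Before scaling, the median gene had 684.2 and 571.3 in the eos1 deletion, 497.3 and 471.7 for izh2 and 548.9 and 499.7 for the wild type. Across genes, which are no replicates, the log2 signals of replicate arrays had a correlation of 0.976 (eos1 deletion), 0.981 (izh2 deletion) and 0.969 (wild type). Of 5449 genes with a probe set, 4915 were bright enough to test, 353 of them on chromosome II and 4562 outside it. Differences are log2 of the eos1 deletion over the wild type with their standard error (SE, n = 2 arrays per strain), and a gene was called at an adjusted p under 0.05 in limma, adjusted over all genes tested. Arrays of bulk culture cannot tell less RNA per cell from fewer cells of a kind. The number of arrays limits the precision.

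The deleted gene followed the labels. EOS1 (YNL080C, chromosome XIV) had scaled signals of 0.333 and 2.55 in its own deletion, both under array background, against 685 and 750 in the wild type. Against the array background the difference was at least 61.7-fold (limma, adjusted p = 4.8e-05). Its neighbours were SWS2, a mitochondrial ribosomal protein gene, and TPM1, which encodes tropomyosin. Neither passed the test, with log2 differences of -0.15 ± 0.22 and -0.19 ± 0.15 (SE). Of the marker genes mutated in BY4741, LEU2, MET17 and URA3 were too dim to test. HIS3 gave signals of 1544 and 1202 in the eos1 deletion, against 2389 and 2301 in the wild type, a difference that did not pass the test (adjusted p = 0.11).

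Outside chromosome II, transcripts of the phosphate starvation response, of the a mating type, and of purine and one-carbon synthesis were lower in the eos1 deletion, and a set of general stress genes was higher. In all, 165 of 4562 genes were called (3.62%; 842 genes, 18.5%, had an unadjusted p under 0.05), 47 higher (1.03%) and 118 lower (2.59%). Of the genes called higher 36 exceeded a 2-fold difference and 6 a 4-fold one, with a median of 2.27-fold. Of those called lower 54 exceeded 2-fold and 9 exceeded 4-fold, with a median of 1.92-fold. Both eos1 deletion arrays lay beyond the other 4 arrays for each of the 165 genes, a separation that the call itself favours, since it rests on the same arrays. The median log2 difference over all genes outside chromosome II was -0.07, with quartiles of -0.3 and 0.15. The p values were adjusted together with those of the chromosome II genes, many of which were called. Without chromosome II genes 103 of the 165 stayed called, and 109 did with chromosome II brought to the median of the others. The split between the directions rests on the scaling, since unscaled signals moved every difference up by 0.26 and gave 108 genes called higher and 34 called lower. Leaving out the first eos1 deletion array left 54 calls and leaving out the second left 45, whereas 264 genes were called without the second wild-type array. Of the 165 themselves, 46 and 42 stayed called without the first and the second eos1 deletion array, 121 and 122 without an izh2 deletion array, and 97 and 131 without a wild-type array. Each gene named below whose call was lost without a wild-type or izh2 deletion array also lost it without an eos1 deletion array. None of the 165 genes changed sign under any alternative run, and 9 of the 47 and 20 of the 118 stayed called in every one that tested them.

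**Figure D1:**
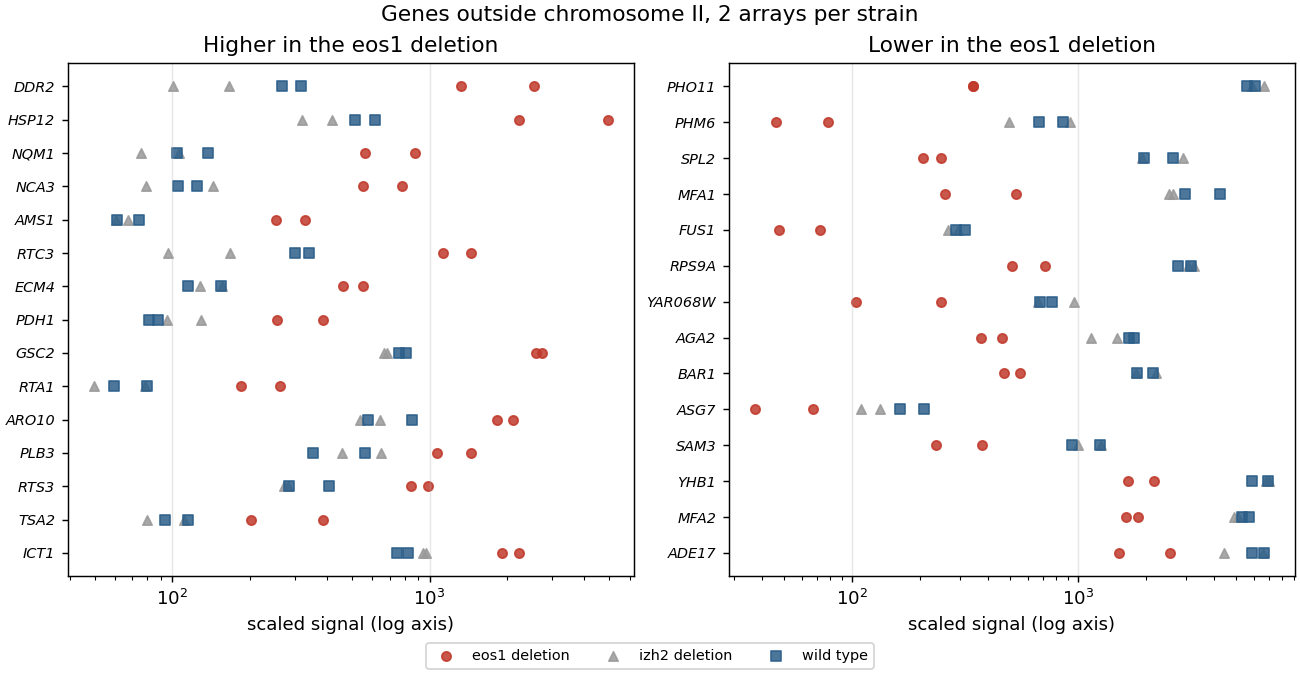
Scaled signal on each array (log axis) of the 15 genes with the largest called increase (left) and of the 14 genes other than EOS1 with the largest called decrease (right), outside chromosome II. Each symbol is 1 array, with 2 arrays each for the eos1 deletion, the izh2 deletion and the wild type. Genes shown were required to have both eos1 deletion arrays beyond both wild-type arrays, so that this separation is not a result. Both eos1 deletion arrays also lie beyond the izh2 deletion arrays for every gene shown.

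The largest decreases after EOS1 itself were in the phosphate starvation genes. In yeast the transcription factor Pho4 turns these genes on when phosphate is scarce, and its activity is held back by the kinase Pho85 with its cyclin Pho80, which Pho81 inhibits. PHO11 (YAR071W), a secreted acid phosphatase, gave 344 and 343 in the eos1 deletion, against 5577 and 6057 in the wild type. Its decrease was 16.9-fold (log2 -4.08 ± 0.16 SE, limma, adjusted p = 5.9e-06), and the arrays of each strain lay close together. PHO12, a near-identical copy, is named by no probe set here, so the PHO11 signal may hold transcripts of both. PHM6, a vacuolar protein of unknown role, had 78.6 and 46 in the eos1 deletion, against 855 and 669 in the wild type, 12.6-fold lower (adjusted p = 0.0014, limma). SPL2, which lowers low-affinity phosphate uptake, had 249 and 207 in the eos1 deletion, against 2637 and 1966 in the wild type, a log2 difference of -3.33 ± 0.25 (SE, limma, adjusted p = 5.4e-04). All 3 stayed called without any single array, and for each of them every eos1 deletion array lay far below every other array.

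Among the phosphate genes outside chromosome II, 9 of 15 tested members fell and 0 rose, with a median log2 difference of -0.77. The subunits of the vacuolar transporter chaperone, which makes polyphosphate, fell by less than the phosphatase. VTC3 had 2711 and 2668 in the eos1 deletion, against 5547 and 5465 in the wild type, a log2 difference of -1.03 ± 0.14 (SE). VTC4, VTC2 and VTC1 had log2 differences of -0.94, -0.77 and -0.66. PHO81, the inhibitor of the Pho80-Pho85 kinase, had 789 and 897 in the eos1 deletion against 1993 and 1573 in the wild type, 2.11-fold lower. PHO8, the vacuolar alkaline phosphatase, was 1.83-fold lower. The high-affinity phosphate transporter PHO84 had 4986 and 5688 in the eos1 deletion, against 7179 and 9362 in the wild type, with no overlap, but did not pass the test (log2 -0.62 ± 0.16, limma, adjusted p = 0.056). Of the genes for phosphate signalling and low-affinity transport, 0 of 9 were called (2 at an unadjusted p under 0.05 in limma), and their median was -0.18. The cyclin gene PHO80 had a log2 difference of -0.12 and the transporter gene PHO90 one of -0.64 (adjusted p = 0.074, limma). PHO81, VTC4, PHO8, VTC1 and VTC2 lost their calls with either eos1 deletion array left out. VTC2 also lost its call without the first wild-type array or either izh2 deletion array, and under 9 processing alternatives. VTC1 also lost its call without the second wild-type array or the first izh2 deletion array, and under 5 processing alternatives. With unscaled signals 4 of the 15 were called.

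All 7 a-specific genes were lower in the eos1 deletion. These genes make the a-factor pheromone and its exporter, the receptor for alpha-factor, and other proteins of a cells, and they are on in haploids of mating type a. MFA1, 1 of 2 genes for a-factor, had 530 and 259 in the eos1 deletion, against 4257 and 2977 in the wild type, 9.61-fold lower (log2 -3.26 ± 0.32 SE, limma, adjusted p = 0.0014). MFA2, the other a-factor gene, had 1836 and 1623 in the eos1 deletion, against 5715 and 5309 in the wild type, 3.19-fold lower (adjusted p = 0.0012, limma). Both genes of the pheromone were thus lower, MFA1 by the larger ratio. AGA2, the binding subunit of the a-agglutinin used in cell adhesion, had 459 and 371 in the eos1 deletion, against 1763 and 1673 in the wild type. BAR1, the secreted protease that degrades alpha-factor, had 471 and 553 in the eos1 deletion, against 1822 and 2151 in the wild type. STE2, the alpha-factor receptor, had 1838 and 2143 in the eos1 deletion, against 4335 and 6075 in the wild type, 2.59-fold lower. ASG7, a regulator of pheromone signalling, had 67.4 and 37.1 in the eos1 deletion, against 209 and 163 in the wild type. STE6, the a-factor exporter, was 2.23-fold lower. The list's median log2 difference was -1.88. STE6 lost its call with either eos1 deletion array left out and ASG7 lost it without the second, and the other 5 kept theirs without any single array. STE14, which methylates a-factor, was not on the list and had a log2 difference of -0.76 (adjusted p = 0.043, limma), lost under 8 of the 12 processing alternatives and without any 1 array other than the second wild-type array.

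The markers of other cell states were set beside this change. The summed signal of the 7 a-cell markers was 5762 and 5549 on the eos1 deletion arrays, 19160 and 17484 on the izh2 deletion arrays, and 19257 and 19713 on the wild-type arrays. The 4 alpha-cell markers summed to 498 and 512 in the eos1 deletion, against 351 and 345 in the wild type. Of these, the alpha-factor gene MF(ALPHA)1 was below background on all 4 arrays of the comparison. MF(ALPHA)2 and STE3, the a-factor receptor, were too dim to test, and STE3 had 114 and 114 in the eos1 deletion, against 46.5 and 49 in the wild type. SAG1, the alpha-agglutinin, was the only marker tested and was not called (log2 0.42 ± 0.19, adjusted p = 0.24, limma). The 6 haploid markers summed to 3999 and 4049 in the eos1 deletion, against 5395 and 5215 in the wild type, and the 7 meiotic markers to 513 and 489 in the eos1 deletion, against 513 and 438 in the wild type. The haploid sum includes FUS3 of chromosome II, a chromosome treated apart below, with a log2 difference of -0.11. The part of other cell types in the decrease of a-specific genes was not tested.

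Some genes that pheromone induces were lower as well, with 4 of 9 tested members outside chromosome II called, 0 of them higher, and a median of -0.95. Of the 9, 3 lay above 0, and for 1 of these both eos1 deletion arrays exceeded both wild-type arrays. FUS1, a membrane protein of cell fusion, had 47.4 and 71.9 in the eos1 deletion, against 290 and 315 in the wild type, 5.18-fold lower (adjusted p = 0.0024, limma). FAR1, which arrests the cell cycle, SST2, which shuts off the pheromone G protein, and AGA1, the anchor subunit of the a-agglutinin, had log2 differences of -1.49, -1.30 and -1.36. Of the genes of the signalling pathway itself 1 of 10 was called, lower, and the median was -0.08. The called gene was GPA1, the G protein alpha subunit, with 539 and 514 in the eos1 deletion, against 1351 and 874 in the wild type (log2 -1.05, adjusted p = 0.038, limma). STE4, the beta subunit, had a log2 difference of -0.61 (adjusted p = 0.10) and STE18, the gamma subunit, one of 0.02. FAR1 and SST2 lost their calls without the first eos1 deletion array, AGA1 with either one left out, and GPA1 with either one or the first wild-type array left out. GPA1 also lost its call under 4 processing alternatives.

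Among the genes that rose, the general stress list, whose genes are controlled by Msn2 and Msn4, held the most calls of the 49 lists described, with 8 of 35 tested members higher and 0 lower. Its median log2 difference was 0.75, and 32 of the 35 lay above 0. Both eos1 deletion arrays exceeded both wild-type arrays for 24 of the 35, against 16.5% of all genes outside chromosome II. DDR2, a stress gene of unknown role, had 2547 and 1330 in the eos1 deletion, against 317 and 268 in the wild type, 6.31-fold higher (log2 2.66 ± 0.33 SE, limma, adjusted p = 0.0055). HSP12, a small membrane-binding heat shock protein, had 4935 and 2227 in the eos1 deletion, against 614 and 512 in the wild type, 5.92-fold higher (adjusted p = 0.007, limma). Both genes were higher on the first eos1 deletion array than on the second, and both arrays lay far above the wild type. NQM1, a transaldolase paralogue, had 881 and 563 in the eos1 deletion, against 138 and 104 in the wild type, 5.90-fold higher. RTC3 had 1130 and 1445 in the eos1 deletion, against 340 and 299 in the wild type, 4.01-fold higher. These 4 genes kept their calls under every alternative.

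The other called stress genes were GND2, YGP1, TSL1 and UBI4, with log2 differences of 1.29, 1.20, 1.16 and 0.84. GND2 is the minor 6-phosphogluconate dehydrogenase, YGP1 a secreted glycoprotein, TSL1 a subunit of trehalose synthase and UBI4 the polyubiquitin gene. TSL1 had an adjusted p of 0.0499 in limma. TSL1 lost its call without any 1 array other than the second eos1 deletion array, and under 5 processing alternatives. UBI4 lost its call without any 1 array other than the second wild-type array, and under 5 processing alternatives. GND2 lost its call with either eos1 deletion array left out, and YGP1 with either of these or the first wild-type array left out. The catalase gene CTT1 had 351 and 192 in the eos1 deletion, against 174 and 123 in the wild type and was not called (log2 0.83 ± 0.35, adjusted p = 0.20, limma). The izh2 deletion arrays were below the wild type for several of these genes: DDR2 had 166 and 101 there, and RTC3 had 167 and 96.2. Trehalose and glycogen genes had a median of 0.41 with 1 of 17 called, and vacuolar hydrolases and autophagy genes one of 0.37 with 2 of 9 called and 9 of 9 above 0. The called vacuolar genes were AMS1, the alpha-mannosidase of the vacuole, and APE1, an aminopeptidase. AMS1 had 328 and 252 in the eos1 deletion, against 74.5 and 60.9 in the wild type, 4.27-fold higher, and APE1 was 1.77-fold higher. APE1 lost its call without any 1 array other than the second wild-type array, and under 6 processing alternatives.

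**Figure D2:**
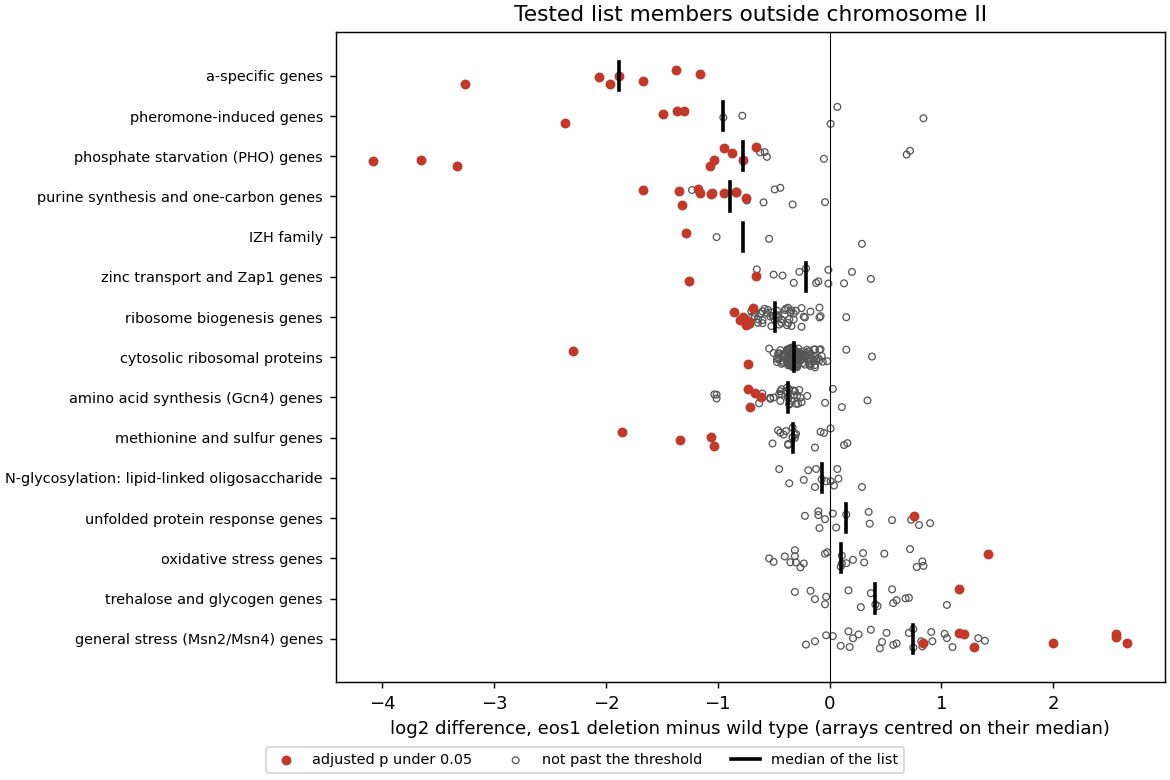
Log2 difference, eos1 deletion over wild type, for each tested member of 15 gene lists outside chromosome II, on arrays scaled to a common gene median. Filled points passed the test, open points did not, and black bars are list medians, which run from -1.88 for the a-specific genes to 0.75 for the general stress genes.

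Purine synthesis and one-carbon genes fell in 11 of 18 tested members and rose in 0, with a median of -0.89. In yeast the activators Bas1 and Pho2 act on these genes, and the one-carbon enzymes supply formyl and methyl groups. ADE17, the enzyme of the last steps to inosine monophosphate, had 2543 and 1514 in the eos1 deletion, against 5859 and 6641 in the wild type, 3.18-fold lower (log2 -1.67 ± 0.27 SE, limma, adjusted p = 0.011). SHM2, the cytosolic serine hydroxymethyltransferase, had 3218 and 2847 in the eos1 deletion, against 6904 and 8582 in the wild type, 2.54-fold lower (adjusted p = 0.0077, limma). On both genes the eos1 deletion arrays were below each other array. ADE1, ADE6 and ADE2 of the same pathway had log2 differences of -1.32, -1.06 and -1.05, and ADE12 and ADE13 of -0.84 each. IMD2, an inosine monophosphate dehydrogenase, had one of -1.18. The glycine cleavage genes GCV1 and GCV3 had -1.16 and -0.75, and MTD1, a cytosolic methylenetetrahydrofolate dehydrogenase, -0.94. ADE17 and SHM2 kept their calls under every alternative, each of the other 9 lost its call without the second eos1 deletion array, and 3 of the 18 were called with unscaled signals.

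Genes for methionine and sulfur showed 4 of 23 lower and 0 higher, with a median of -0.33. Over all genes outside chromosome II 2.59% were called lower. At an unadjusted p under 0.05 in limma the list held 5 of 23 genes, against 18.5% of all genes outside chromosome II. SAM3, the S-adenosylmethionine permease, had 377 and 235 in the eos1 deletion, against 941 and 1246 in the wild type, 3.64-fold lower (adjusted p = 0.0088, limma). MMP1, the related permease of S-methylmethionine, was 2.08-fold lower. MET6, the methionine synthase, had 3201 and 1521 in the eos1 deletion, against 4904 and 6404 in the wild type (log2 -1.34, adjusted p = 0.0482, limma), and MET16 of sulfate assimilation had a log2 difference of -1.03. MMP1 and MET16 lost their calls with either eos1 deletion array left out, and MET6 under 8 of the 12 processing alternatives and without the second eos1 deletion or the second wild-type array. Amino acid synthesis genes of the Gcn4 group showed 4 of 39 lower and 0 higher (median -0.37), namely ILV3, BAT1, HIS1 and LEU1, with log2 differences between -0.73 and -0.61. HIS1, BAT1 and ILV3 lost their calls with either eos1 deletion array or the second wild-type array left out, and LEU1 with any 1 of the 6 arrays left out. LEU1 also lost its call under 7 of the 12 processing alternatives, and ILV3 under 5. At an unadjusted p under 0.05 in limma 14 of the 39 Gcn4 genes were lower and 0 higher. With unscaled signals 1 methionine gene and 0 of the Gcn4 genes were called.

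Of 59 ribosome biogenesis genes outside chromosome II, 8 fell and 0 rose, the median was -0.49, and both eos1 deletion arrays lay below both wild-type arrays for 56, against 30.9% of all genes outside chromosome II. UTP14, of the small-subunit processome, had 679 and 691 in the eos1 deletion, against 1326 and 1157 in the wild type, 1.81-fold lower (adjusted p = 0.022, limma). DIM1, EBP2, BRX1, RRP5, NHP2, UTP21 and RRB1 were lower by 1.60-fold to 1.74-fold. None of the 8 was called with unscaled signals or with either eos1 deletion array left out. RRP5 and RRB1 lost their calls under 8 of the 12 processing alternatives, UTP21 under 7 and EBP2 under 5. RNA polymerase I subunits had a median of -0.50 with 0 of 7 called and 4 at an unadjusted p under 0.05. Cytosolic ribosomal protein genes had a median of -0.32, which quantile normalization brought to -0.03, with 2 of 117 called, against 2.59% called lower over all genes outside chromosome II. At an unadjusted p under 0.05 in limma 54 of the 117 were lower and 0 higher, against 18.5% of all genes outside chromosome II in either direction. Both eos1 deletion arrays lay below both wild-type arrays for 103 of the 117, against 30.9%. The called genes were RPS9A and RPL4B. RPS9A had 712 and 510 in the eos1 deletion, against 3153 and 2768 in the wild type, 4.90-fold lower (log2 -2.29 ± 0.20 SE, limma, adjusted p = 0.0012). RPL4B was 1.66-fold lower and lost its call under 7 of the 12 processing alternatives and without any 1 array other than the second wild-type array. Ribosomal protein genes come in near-identical pairs, and probe sets may not separate the copies.

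For zinc, the subject named by the series, 2 of 15 tested genes were called, both lower, and the list's median of -0.21 became 0.04 with unscaled signals. ZRT1, the high-affinity zinc transporter of the plasma membrane and a Zap1 target, gave 453 and 490 without EOS1, 1194 and 1329 without IZH2, and 1283 and 996 in the wild type. It was 2.40-fold lower in the eos1 deletion than in the wild type (log2 -1.26 ± 0.19 SE, limma, adjusted p = 0.0099), and the call was lost without the first eos1 deletion array. FET4, a low-affinity transporter of iron and zinc, had 1313 and 1373 in the eos1 deletion, against 2183 and 2048 in the wild type (log2 -0.66 ± 0.16, adjusted p = 0.044, limma), a call lost under 8 of the 12 processing alternatives and without any 1 of the 6 arrays. ZRT2, the low-affinity zinc transporter, had 981 and 925 in the eos1 deletion, against 1530 and 1454 in the wild type and just missed the threshold (adjusted p = 0.053, limma). ZRC1, which carries zinc into the vacuole, had a log2 difference of -0.50 (adjusted p = 0.083). ZAP1 had 119 and 140 in the eos1 deletion, against 84.6 and 118 in the wild type (log2 0.37, adjusted p = 0.46).

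The IZH genes encode membrane proteins tied to zinc and lipid metabolism, and 1 of 4 was called. IZH4 had 614 and 359 in the eos1 deletion, against 1364 and 951 in the wild type, 2.43-fold lower (log2 -1.28 ± 0.28 SE, limma, adjusted p = 0.03). Its call was lost without the second eos1 deletion array or the first wild-type array, and with unscaled signals. IZH2 had 1841 and 1217 in the eos1 deletion, against 3494 and 2589 in the wild type. The arrays did not overlap, but the difference did not pass the test (log2 -1.01 ± 0.45, adjusted p = 0.23, limma). For IZH2 the shared spread included the izh2 deletion arrays, where the signal was 3.77 and 1.29. IZH1 had a log2 difference of -0.54 and IZH3 one of 0.29, and neither was called.

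In the groups closest to the known place of Eos1, few genes were called. Of the genes outside chromosome II for the lipid-linked oligosaccharide, the oligosaccharyltransferase and glycan trimming, the O-mannosyltransferases and the Golgi mannosyltransferases, 0 of 13, 0 of 11, 0 of 6 and 0 of 16 were called, with medians of -0.07, -0.09, -0.12 and -0.16. At an unadjusted p under 0.05 in limma these lists held 1 of 13, 1 of 11, 0 of 6 and 6 of 16 genes, against 18.5% of all genes outside chromosome II. The Golgi list was thus above that share, with 5 of its 6 genes lower. For 8 of the 16 Golgi genes both eos1 deletion arrays lay below both wild-type arrays, against 30.9% of all genes outside chromosome II. The unfolded protein response had 1 of 15 called and a median of 0.15. The called gene was ERO1, the oxidase of disulfide formation in the endoplasmic reticulum, with 3221 and 3007 in the eos1 deletion, against 1640 and 2065 in the wild type (log2 0.76 ± 0.17, limma, adjusted p = 0.037). ERO1 lost its call without any 1 array other than the second wild-type array, and under 4 processing alternatives. KAR2, the main chaperone of that compartment, had 7471 and 9106 in the eos1 deletion, against 7651 and 8524 in the wild type, with overlapping arrays. The genes for degradation of misfolded proteins from the compartment had 0 of 14 called (1 at an unadjusted p under 0.05) and a median of 0.05.

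Of the oxidative stress genes, 1 of 24 was called and the median was 0.10. At an unadjusted p under 0.05 in limma the list held 12 genes, 6 higher and 6 lower, against 18.5% of all genes outside chromosome II. TSA2, a stress-inducible peroxiredoxin, had 384 and 202 in the eos1 deletion, against 115 and 93.4 in the wild type, 2.68-fold higher (adjusted p = 0.042, limma), a call lost under 4 of the 12 processing alternatives and without the first eos1 deletion array, the second wild-type array or either izh2 deletion array. YHB1, the flavohaemoglobin that detoxifies nitric oxide, was lower, with 1667 and 2164 in the eos1 deletion, against 5879 and 6906 in the wild type, a 3.35-fold decrease (adjusted p = 0.0014, limma). ECM4, an omega-class glutathione transferase, had 459 and 552 in the eos1 deletion, against 115 and 155 in the wild type, 3.78-fold higher (adjusted p = 0.0055, limma). Iron genes had 0 of 19 called (median 0.11) and copper genes 0 of 8 (median -0.17), with 2 and 3 genes at an unadjusted p under 0.05.

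Cell wall genes had 3 of 29 higher and 1 lower. GSC2, the stress-inducible catalytic subunit of glucan synthase, had 2746 and 2587 in the eos1 deletion, against 811 and 762 in the wild type, 3.39-fold higher (log2 1.76 ± 0.17 SE, limma, adjusted p = 0.0014). NCA3, a protein of the SUN family, had 782 and 553 in the eos1 deletion, against 105 and 125 in the wild type, 5.75-fold higher. KDX1, a kinase-like protein of the cell wall integrity pathway, was 2.18-fold higher. Its call was lost under 4 of the 12 processing alternatives and without any 1 array other than the second wild-type array. CWP1, a mannoprotein of the wall, had 624 and 899 in the eos1 deletion, against 1978 and 2405 in the wild type, 2.91-fold lower. Among the hypoxic genes, TIR3, another wall mannoprotein, was 2.91-fold lower and ANB1, a form of translation factor eIF5A, had a log2 difference of -1.58, the calls among 12 tested. CWP1 lost its call without the first eos1 deletion array and ANB1 without the second. TIR2, a wall protein of the same family, had 232 and 175 in the eos1 deletion, against 217 and 223 in the wild type and was not called.

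Several enzymes of central metabolism and membrane lipids were called. PDH1, a protein tied to propionate use, had 255 and 387 in the eos1 deletion, against 88.2 and 81 in the wild type, 3.72-fold higher. ARO10, the decarboxylase of the fusel alcohol pathway, had 1833 and 2113 in the eos1 deletion, against 577 and 853 in the wild type, 2.80-fold higher, and the aromatic aminotransferase gene ARO9 was 2.02-fold higher. Both act in the breakdown of aromatic amino acids. The phospholipase B genes moved in both directions. PLB3 had 1066 and 1446 in the eos1 deletion, against 353 and 560 in the wild type, PLB1 had 2209 and 2392 in the eos1 deletion, against 803 and 1031 in the wild type, and PLB2 had 477 and 642 in the eos1 deletion, against 1328 and 1578 in the wild type. Their log2 differences were 1.48, 1.34 and -1.39, with adjusted p of 0.018, 0.016 and 0.010 in limma. ICT1, a lysophosphatidic acid acyltransferase, was 2.63-fold higher and kept its call under every alternative. RTA1, a membrane protein linked to resistance to a sterol-synthesis inhibitor, was 3.21-fold higher, and the putative phosphatase subunit gene RTS3 was 2.70-fold higher. RTA1 was under the filter signal of 90.5 on every wild-type and izh2 deletion array, and was tested only because of its signal in the eos1 deletion. The citrate synthase genes CIT2 and CIT1 had log2 differences of 1.08 and 0.79, the calls among 15 genes of the citrate cycle, and both lost them with either eos1 deletion array left out. PCK1, for gluconeogenesis, was 2.19-fold higher as 1 of 10 glucose-repressed genes, while glycolysis had 0 of 17 called and respiration 0 of 29, with 7 and 2 at an unadjusted p under 0.05. ARO10, PDH1, PLB3 and RTS3 lost their calls without the second eos1 deletion array, PLB2 without the first, and RTA1, PLB1, ARO9 and PCK1 with either of them left out. YAR068W, an open reading frame of chromosome I with near copies elsewhere, had 104 and 247 in the eos1 deletion, against 679 and 764 in the wild type, a log2 difference of -2.17 (adjusted p = 0.013, limma).

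The other lists outside chromosome II held few calls. In the pentose phosphate pathway NQM1 and GND2 rose and RKI1, the ribose-5-phosphate isomerase, had a log2 difference of -0.80, out of 10. Of 9 thiamine genes, THI4, which makes the thiazole part, had 0.98 and THI80, which makes the diphosphate, -0.73. Of the histone genes elsewhere HTA1 was called (-0.65, 1 of 5), and of the genes expressed in daughter cells CTS1, the chitinase of cell separation (-0.65, 1 of 10). All of these but NQM1 lost their calls with either eos1 deletion array left out. CTS1 lost its call with any 1 of the 6 arrays left out, and under 7 processing alternatives. THI80 lost its call without any 1 array other than the second wild-type array, and under 9 processing alternatives. THI4 lost its call without any 1 array other than the first wild-type array. HTA1 also lost its call with either wild-type array left out, and under 3 processing alternatives. In limma 0 were called of 21 heat shock chaperones, 31 proteasome subunits, 59 mitochondrial ribosomal proteins, 23 ergosterol genes, 13 fatty acid genes, 18 phospholipid genes and 11 cyclin genes. Their medians were 0.15, 0.04, -0.03, -0.24, -0.39, -0.14 and 0.30, and 2, 0, 0, 4, 7, 5 and 1 of them had an unadjusted p under 0.05, against 18.5% of all genes outside chromosome II. The 11 cyclin genes (SIC1 included) all lay above 0 with this scaling. Hexose transport, drug efflux, nitrogen use, aryl-alcohol dehydrogenase and meiosis genes also held 0 calls, with at most 1 gene at an unadjusted p under 0.05 in each list.

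On chromosome II nearly the whole chromosome was higher in the eos1 deletion. The median log2 difference of its 353 tested genes exceeded the median of the other genes by 0.85, or 1.80-fold. Against the wild-type mean it was 0.85 and 0.84 for the 2 eos1 deletion arrays. The same value was -0.02 and -0.01 on the izh2 deletion arrays. The largest departure among the other chromosomes was 0.08, on chromosome VIII. Without removal of this shift, 149 of the 353 genes were called (42.2%), 147 of them higher (41.6%) and 2 lower (0.567%). Both eos1 deletion arrays exceeded both wild-type arrays for 84.4% of chromosome II genes, against 16.5% of the genes outside it. The left arm (96 genes) had a median of 0.80 and the right arm (257 genes) one of 0.76, and the medians of 10 consecutive blocks of genes ran between 0.63 and 0.89. The shift was thus spread over both arms, and 23 genes lay below the median of the other chromosomes. DNA content was not measured here.

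**Figure D3:**
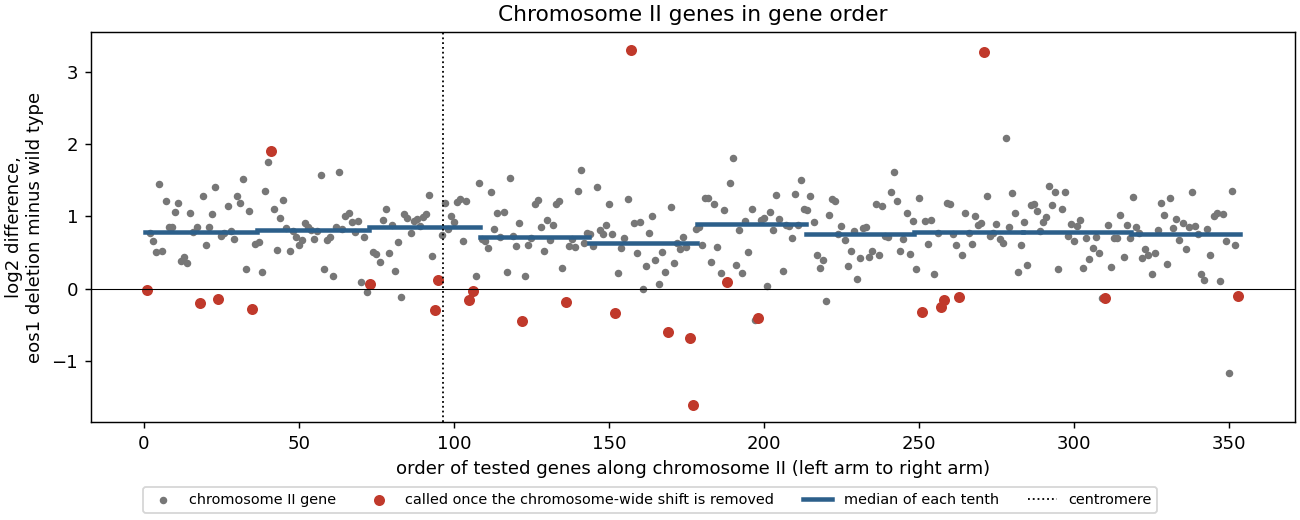
Log2 difference, eos1 deletion over wild type, for the 353 tested genes of chromosome II in their order along it. Horizontal bars are the medians of 10 consecutive blocks, between 0.63 and 0.89, the dotted line is the centromere, and larger points are the 26 genes called once the chromosome-wide shift was removed.

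The shift depended on the signal. For chromosome II genes with a mean scaled signal under 1000 (186 genes) the median was 0.90, against 0.01 for other genes in that range. Between 1000 and 5000 (133 genes) it was 0.71, against -0.17. Above 5000 (34 genes) it was 0.02, against -0.31, so that the excess over other genes of like signal was 0.89, 0.88 and 0.32 in the 3 ranges. Of the 23 genes called lower once the shift was removed, 1, 3 and 19 fell in these ranges. The part of the signal level in those calls was not tested, and a brighter gene is not shown to have responded differently.

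**Figure D4:**
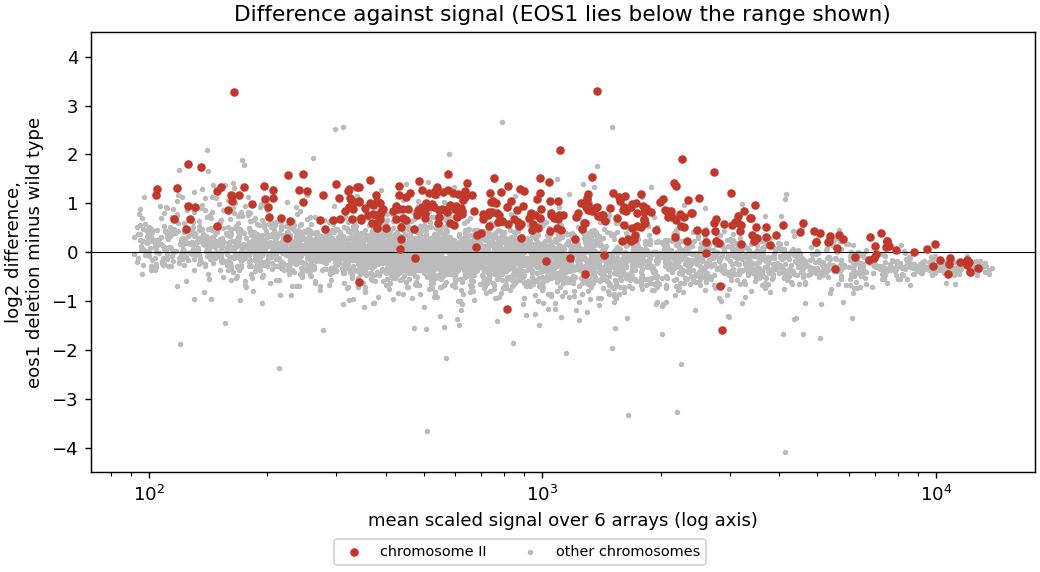
Log2 difference, eos1 deletion over wild type, against the mean scaled signal over the 6 arrays (log axis), for genes of chromosome II (large points) and of the other chromosomes (small points). The chromosome II genes lie above the others at signals below 5000, and the excess narrows to 0.32 above 5000.

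To compare the genes of the chromosome with each other, its shift was removed on each array by bringing its median to that of the other genes. This took 0.86 (1.82-fold) from each log2 difference. After that step 26 of 353 genes were called (7.37%), 3 higher (0.85%) and 23 lower (6.52%). The count was 9 without the first eos1 deletion array and 17 without the second, and 10 genes were called higher without the second wild-type array. HSP26, a small heat shock protein and chaperone, had 4276 and 2789 in the eos1 deletion, against 298 and 410 in the wild type. That was 9.88-fold in all, and a log2 difference of 2.44 once the shift was removed (limma, adjusted p = 0.0028), and it held under every alternative. COS111, a member of a family with near copies, had 479 and 319 in the eos1 deletion, against 50.3 and 32.3 in the wild type, 2.42 once the shift was removed (adjusted p = 0.028, limma). PRX1, the mitochondrial peroxiredoxin, had 5033 and 4261 in the eos1 deletion, against 1319 and 1151 in the wild type, 1.05 once it was removed (adjusted p = 0.024, limma). COS111 and PRX1 lost their calls with either eos1 deletion array left out. COS111 was under the filter signal of 90.5 on every wild-type and izh2 deletion array. It was thus tested only because of its signal in the eos1 deletion. Further genes of the stress, trehalose and heat shock lists were called before the shift was removed and not after. YRO2, SSE2, NTH2, SSA3 and TPS1 then had 0.78, 0.75, 0.32, 0.21 and 0.11. SSE2 encodes a chaperone of the Hsp110 family, SSA3 one of the Hsp70 family and TPS1 the trehalose phosphate synthase. SDS24 and the autophagy gene ATG8 had 1.23 and 0.66 and were not called either. Before the shift was removed, YRO2, SSE2 and ATG8 lost their calls without the first eos1 deletion array, and NTH2, SSA3 and TPS1 with either one left out.

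Of the 2 tested phosphate genes of chromosome II, 1 was called lower. PHO5, the main repressible acid phosphatase, had 1249 and 1102 in the eos1 deletion, against 3324 and 3830 in the wild type, a log2 difference of -1.60 in all and -2.46 once the shift was removed (limma, adjusted p = 2.9e-04). PHO3, the adjacent phosphatase gene, known in yeast to be repressed by thiamine, had 1953 and 1836 in the eos1 deletion, against 3090 and 3009 in the wild type, -1.55 once the shift was removed (adjusted p = 0.0027, limma). AAC3, an ADP/ATP carrier of hypoxic cells, had 245 and 239 in the eos1 deletion, against 383 and 351 in the wild type, -1.46 once the shift was removed (adjusted p = 0.0076, limma). All 3 had eos1 deletion arrays below both wild-type arrays and kept these calls without any single array. The other phosphate gene, the sodium-phosphate cotransporter PHO89, had 188 and 551 in the eos1 deletion, against 679 and 775 in the wild type and was not called (adjusted p = 0.090 after the shift was removed, limma).

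The remaining 20 genes called lower relative to the chromosome-wide shift had log2 differences between -0.5 and 0.2 before the shift was removed. All were below the median gene of chromosome II at that stage. Among them were 9 of the 10 ribosomal protein genes of the chromosome and all 4 of its histone genes. The 10 ribosomal protein genes had a median of -1.05 once the shift was removed and of -0.19 in all, against -0.32 for the 117 elsewhere, and their wild-type mean signals ran from 7082 to 13602. RPL4A, for example, had 7737 and 9729 in the eos1 deletion, against 10729 and 12959 in the wild type. The histone genes HTA2, HHF1, HHT1 and HTB2 lay at -1.15, -1.02, -0.90 and -0.73 once the shift was removed. TEF2, a gene for elongation factor 1 alpha with a near-identical copy, and TIP1, a wall mannoprotein, lay at -1.27 and -1.20. The rest were SND3, of targeting to the endoplasmic reticulum, COS2 and YBL113C, with near copies at other chromosome ends, ARO4 of aromatic amino acid synthesis and PGI1 of glycolysis. TIP1, HTB2, HHT1, RPL19B, COS2, YBL113C and ARO4 lost their calls with either eos1 deletion array left out, and HHF1 without the second. TEF2, RPS6B, RPS8A, RPS11B, RPL21A, RPL32 and PGI1 lost theirs without the first. SND3 lost its call with any 1 of the 6 arrays left out.

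Log2 differences were also set side by side for 18 pairs of paralogues with 1 member on chromosome II. SDS24 had 2319 and 2321 in the eos1 deletion, against 398 and 748 in the wild type, whereas its paralogue SDS23, of chromosome VII, had 294 and 302 in the eos1 deletion, against 241 and 347 in the wild type. YRO2, a membrane protein induced by stress, had a log2 difference of 1.64, against -0.24 for MRH1. The Hsp110 genes SSE2 and SSE1 had 1.61 and -0.07, and the neutral trehalase genes NTH2 and NTH1 had 1.19 and 0.56. In other pairs both members had values of like size, with CSH1 and SUR1 at 0.86 and 0.77 and UBC4 and UBC5 at 0.40 and 0.55, and of these CSH1 was called, with the call lost when either eos1 deletion array was left out. In several bright pairs neither member was called before the shift was removed: RPS8A and RPS8B had -0.27 and -0.18, RPL23A and RPL23B -0.15 and -0.25, and ECM33 and PST1 0.00 and -0.07. RPS9B, the copy of RPS9A on chromosome II, had 9237 and 9385 in the eos1 deletion, against 10755 and 11445 in the wild type, a log2 difference of -0.25 against -2.29 for RPS9A. The difference between the members of a pair was not tested, and levels are not compared between genes.

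**Figure D5:**
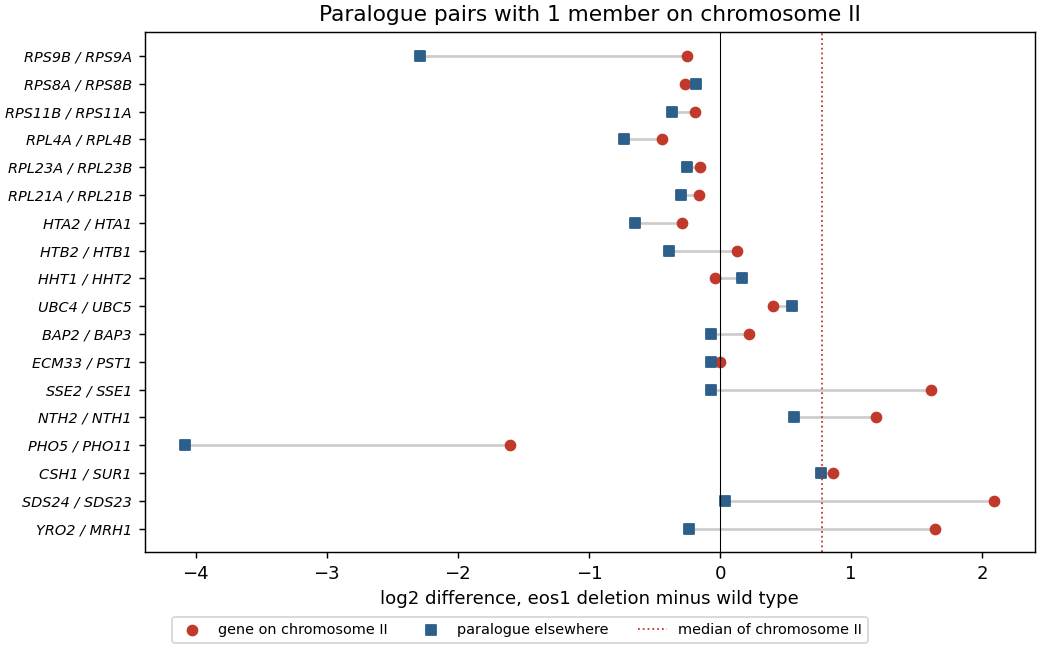
Log2 difference, eos1 deletion over wild type, for 18 paralogue pairs, with the member on chromosome II as a circle and the member elsewhere as a square. The dotted line is the median of chromosome II, 0.78, and the ribosomal protein and histone genes of the chromosome lie left of it.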

How the data were processed

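Affymetrix Yeast Genome 2.0 arrays of 6 log-phase cultures were used, 2 per strain. The deposited values are signal intensities, 1 for each probe set, on a linear scale. The software was GCOS, per the submitters' processing notes, and no source used here states how intensities were scaled. Of 10928 probe sets, 5498 name 1 gene of the RefSeq table of the R64 assembly, used for names, chromosomes and gene order, 1 names several, 1746 name another organism's gene and 3683 none. Where a gene has several probe sets (47 genes), the brightest was used. Signals were floored at 1, taken to log2 and centred on each array's gene median. Testing required a mean log2 signal above 6.5 (a signal of 90.5), the 95th percentile of probe sets naming no gene of S. cerevisiae. That mean was taken over all 6 arrays, so a gene bright only in the eos1 deletion could pass. Array background is the 95th percentile of the other organism's probe sets on that array. Linear models with an intensity trend (limma 3.58.1, under R 4.3.3) were fitted to all 6 arrays, with 3 residual degrees of freedom and two-sided p values adjusted by Benjamini-Hochberg over 4915 genes. The relative fit moved chromosome II genes on each array to the median of the other genes. The fit was tested on simulated data.

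The members and the 49 gene lists were chosen with earlier results of these data known, and no list was tested as a set. Named genes are EOS1 and its neighbours, the auxotrophic markers, the 15 highest and 15 lowest called genes outside chromosome II, the 10 of chromosome II in each direction, up to 5 members of each list with the smallest p, paralogue pairs, and zinc and IZH genes. Further genes, such as PHO84, PHO81, the lesser VTC and ADE genes, PLB1, PLB2, ARO9, STE14, CTT1, KAR2 and TIR2, were chosen after their values were seen. Alternatives covered scaling, filter, floor, probe sets, the arrays fitted, the intensity trend, the treatment of chromosome II, a replicate block and leaving out each array.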

Additional observations from a re-analysis of the deposited data

How the results depend on the processing

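The alternatives were 12 processing settings and the leaving out of each of the 6 arrays. Outside chromosome II, against 165 calls (47 higher, 118 lower), unscaled signals gave 108 higher and 34 lower. A mean log2 signal of at least 8 gave 29 higher. That setting tested 141 of the 165 genes, and all 141 stayed called. Leaving out chromosome II genes gave 103 calls (71 lower), and bringing chromosome II to the median of the others gave 109 (76 lower). Leaving out 1 array gave between 45 and 264 calls, 15 to 94 higher and 30 to 170 lower. With the chromosome II shift removed, against 26 calls (3 higher, 23 lower), unscaled signals gave 17 (14 lower), and leaving out 1 array gave between 9 and 34, with 1 to 10 higher and 8 to 28 lower. Called members of the lists outside chromosome II, counted once per gene, numbered 79 and ran from 29 to 88 without 1 array. The excess of chromosome II stayed between 0.83 and 0.88 throughout. The replicate block gave 263 calls outside chromosome II (213 lower) and 147 called list members. Same-numbered arrays deviated together with a correlation of 0.477 for eos1 deletion with wild type, 0.0885 for eos1 with izh2 deletion and -0.342 for izh2 deletion with wild type, so that the numbers were not taken to pair the samples. Of 1569 comparisons of named genes with a processing setting, 1359 kept direction and call, 207 lost the call, 2 gained one and 1 changed sign, namely CSH1 at -0.00 once chromosome II was brought to the median of the others, as the setting itself moves it. Of 810 such comparisons without 1 array, 564 kept both, 245 lost the call and 1 changed sign, namely IZH3, not called, at -0.05 without the first wild-type array and 0.63 without the second. The cause of the other losses was not tested. Genes with a low signal over background were outside the test.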
